A study of Mus musculus with 8 samples.

Results

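Glutathione and NRF2 target genes were followed here in the splenic tumors that FL5.12 cells formed in mice, and in the cultured parental cells. The members are 10 mouse genes, Gclm, Gclc, Gsr, Gss, Nqo1, Hmox1, Txnrd1, Slc7a11, Prdx1 and Nfe2l2. A probe set was taken where its platform gene symbol was, or included, 1 of them, which found all 10 genes, on 18 of the 22690 probe sets of the array, among 13319 gene symbols. Gclm entered the set because it was lower in tumors than in parental cells, and the other genes stand beside it by their function. Since 1 member was chosen from that contrast, the members' differences between tumors and parental cells are given below as a description, without a test.

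The tumors grew in the spleens of 3 nude mice after intravenous injection of the parental line. Parental cells were FL5.12 cells, a mouse pro-B cell line grown with interleukin-3 from WEHI-3B culture supernatant, into which Bfl-1DC and p53DD had been brought by stable transfection. The tumors arose from those transfected cells, so both groups carry both constructs, and untransfected FL5.12 cells were not among the samples. The labels give no age for the mice, no time from injection to harvest and no statement on whether the parental cells were 1 clone, and whether tumor cells were separated from other spleen cells is not stated. Each of the tumors 1, 2 and 3 and the parental line was measured on 2 Affymetrix Mouse Genome 430A 2.0 arrays, 8 arrays in all. The labels do not say whether the 2 arrays of a source had an RNA extraction each, and p-values that rest on their spread may therefore measure technical variation.

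Glutathione is a small cysteine-containing peptide that cells use to remove peroxides and to conjugate reactive compounds. Its rate-limiting step is carried out by glutamate-cysteine ligase, an enzyme of a catalytic subunit, encoded by Gclc, and a modifier subunit, encoded by Gclm, and glutathione synthetase, encoded by Gss, completes the peptide. NRF2, encoded by Nfe2l2, is a transcription factor that is held low by KEAP1 in unstressed cells and that, under oxidative or electrophilic stress, binds antioxidant response elements beside genes of glutathione, thioredoxin, quinone and heme metabolism.

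The promoter sequences of Gclm and Prdx1 are shown because these were the members whose 6 tumor arrays all lay on one side of both parental arrays, Gclm below and Prdx1 above. The sequences are from RefSeq, build GRCm38.p6, and give the 250 bases before each gene's start on the plus strand, at chr3:122245307-122245556 for Gclm and chr4:116685349-116685598 for Prdx1. Capitals mark a match to TGACNNNGC, the core letters of an antioxidant response element, read here on the other strand.
Gclm: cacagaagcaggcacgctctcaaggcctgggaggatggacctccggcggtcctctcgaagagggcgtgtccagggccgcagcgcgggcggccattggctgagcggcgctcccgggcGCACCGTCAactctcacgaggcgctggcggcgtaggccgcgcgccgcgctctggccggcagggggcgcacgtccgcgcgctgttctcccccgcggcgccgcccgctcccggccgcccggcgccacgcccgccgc
Prdx1: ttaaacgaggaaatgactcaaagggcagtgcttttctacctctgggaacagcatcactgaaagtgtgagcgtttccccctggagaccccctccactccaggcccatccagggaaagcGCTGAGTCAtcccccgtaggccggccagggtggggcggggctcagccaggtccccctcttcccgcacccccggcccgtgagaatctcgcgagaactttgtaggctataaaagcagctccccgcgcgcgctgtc
The match begins 134 bases before the start in Gclm and 133 bases before it in Prdx1. In Prdx1 it overlaps a match to TGANTCA, the core letters bound by AP-1, and a second TGANTCA match lies further upstream, whereas the Gclm window holds no TGANTCA. Over windows of 300 bases, from 250 before to 50 after a start, TGACNNNGC on either strand was present in 12.4% of 32851 windows and TGANTCA in 7.81%. The sequence table held 9 windows of 7 members, and 4 windows matched TGACNNNGC, 1 each of Gclm, Prdx1, Nfe2l2 and Txnrd1. A match is a description of letters and not of binding, which was not measured here.

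Signals are linear MAS5 intensities, and differences between groups were taken on the scale of log2(signal + 16), on which dim genes show too small a change. Probe sets brighter than the 40th percentile of their array (15.6 to 20.7) on at least 2 arrays entered the fits, and all 18 of the members qualified. Slc7a11 reached that level on only 2 arrays, the second arrays of tumors 1 and 3. It thus entered the fits through tumor arrays alone. Its values, also where it is counted among the members, are given as a description. The comparison of tumors with parental cells took the mean of a tumor's 2 arrays as 1 value, 3 tumors against 2 parental arrays. A gene was called where limma's adjusted p was under 0.05 over all 8535 genes, or over all 14893 probe sets in the fit per probe set. Signals of different probe sets are not compared with each other.

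Gclm was lower in every tumor than in parental cells. Its signal was 706 and 372 (tumor 1), 516 and 344 (tumor 2) and 522 and 465 (tumor 3), against 1059 and 1088 (parental). All 6 tumor arrays lay below both parental arrays, as did those of 8.28% of genes. The tumors averaged 488 ± 54.7 (SD, n = 3 tumors) and the parental cells 1074 ± 20.8 (SD, n = 2 arrays), a ratio of 0.454. On the log2 scale the difference was -1.15 ± 0.16 (SE), at -1.04 in tumor 1, -1.31 in tumor 2 and -1.10 in tumor 3. Arrays of number 1 alone gave -0.86 and arrays of number 2 alone -1.44. The second array of each tumor was dimmer than its first, while the parental arrays were alike. This is the value for which Gclm was chosen. It is measured by 1 probe set.

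**Figure D1:**
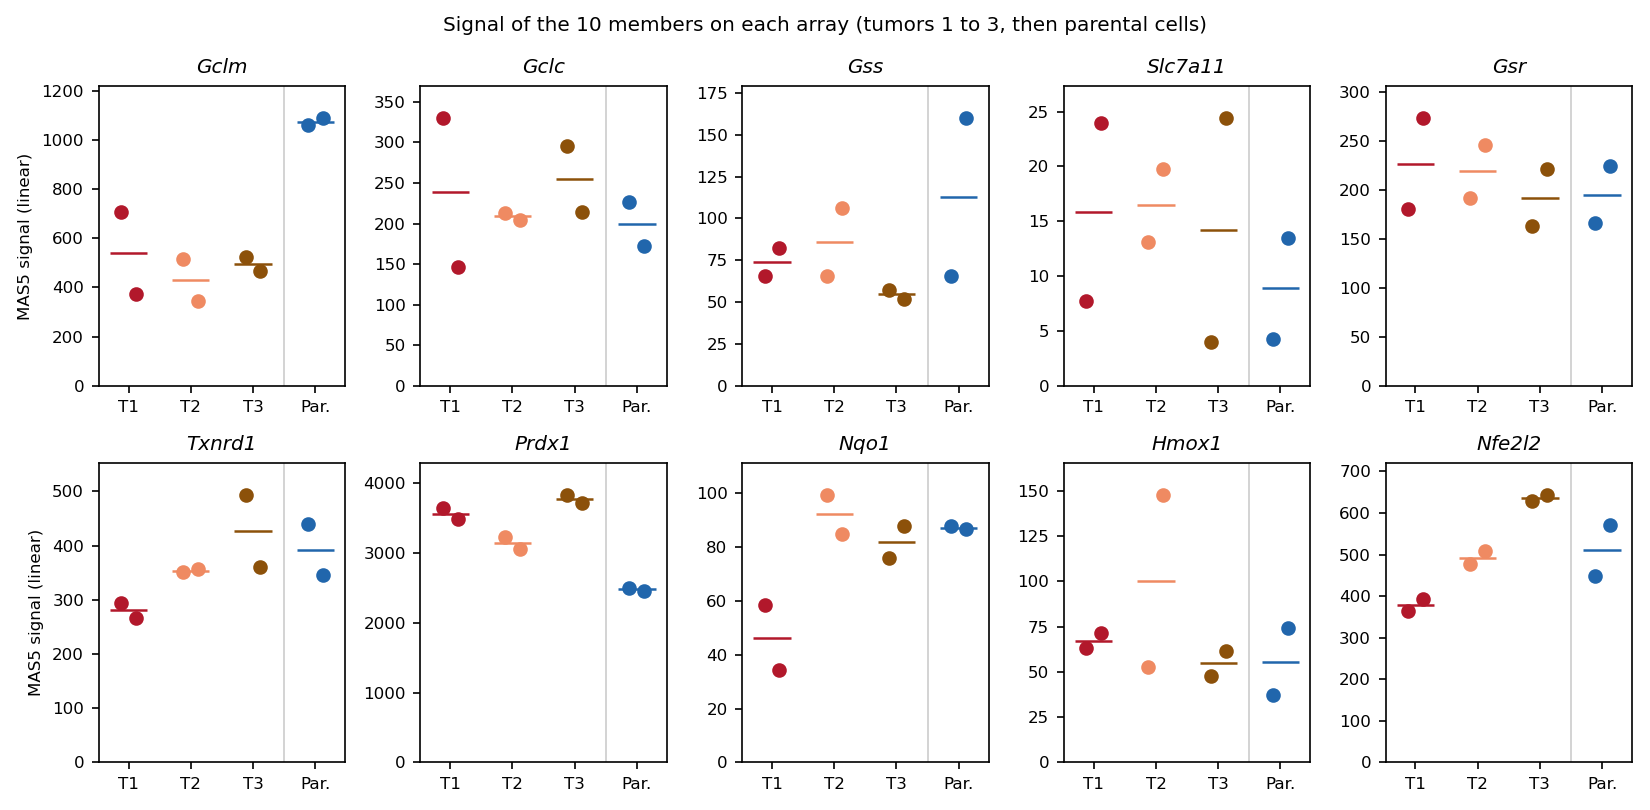
Signal of each member on the 8 arrays, 1 panel per gene, with 2 points per source, a bar at their mean and the linear MAS5 signal on the y axis from 0; where a gene has several probe sets, the one with the highest tumor mean is drawn. Gclm lies at 344 to 706 in tumors and at 1059 and 1088 in parental cells, Prdx1 is higher in all tumor arrays, and for the other genes tumor and parental arrays overlap.

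Gclc, the catalytic partner of Gclm, did not show the same difference. Its main probe set gave 329.9 and 147 (tumor 1), 213 and 205 (tumor 2) and 295 and 214 (tumor 3), against 226 and 172 (parental). The parental values lay within the range of the tumor arrays, and the log2 difference was 0.19 ± 0.18 (SE). The second Gclc probe set gave -0.01 ± 0.21, with tumor means of 173 ± 34.5 (SD, n = 3) against 172 ± 29.8 (SD, n = 2) in parental cells. Within arrays, the change of Gclm minus that of Gclc was -1.20, -1.39 and -1.43 in tumors 1, 2 and 3, a gap that contains the value for which Gclm was chosen. The 1.09 gap between the first and second array of tumor 1 on the main Gclc probe set was the widest of the 4 sources.

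The other genes of glutathione supply were also without a shared shift. Gss read 65.5 and 82.6 (tumor 1), 65.5 and 106 (tumor 2) and 57.4 and 52.0 (tumor 3), against 65.6 and 159.9 (parental), a log2 difference of -0.48 ± 0.34 (SE). The parental arrays lay further apart than any pair of tumor arrays, and without parental replicate 2 the difference was 0.07. Slc7a11, the cystine importer whose product brings in the cysteine for glutathione, stood near the floor of the array at 3.98 to 24.4 in tumors and 4.28 and 13.5 in parental cells. Its log2 difference of 0.32 ± 0.20 (SE) therefore depends on the pseudocount, being 0.70 with a pseudocount of 1 and 0.12 with 64. Gsr, the reductase that returns oxidised glutathione to its reduced form, had log2 differences of 0.11 ± 0.18 and 0.17 ± 0.16 on its 2 probe sets. Its main probe set read 163 to 273 in tumors and 166 and 224 in parental cells.

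Prdx1, a peroxiredoxin that reduces hydrogen peroxide with electrons from thioredoxin, was the member with the opposite pattern to Gclm. Its 5 probe sets also carry the symbol Gm21399 in the platform annotation, so their signal may come from either gene and Prdx1 was outside the fit per gene. The probe set of the highest signal gave 3639.9 and 3479.9 (tumor 1), 3233 and 3055 (tumor 2) and 3836 and 3716 (tumor 3), against 2502 and 2459 (parental). On all 5 probe sets every tumor array lay above both parental arrays, a pattern shown by 9.35% of all probe sets. The log2 differences ran from 0.49 ± 0.16 to 0.82 ± 0.21 (SE), that is, tumor to parental ratios of 1.41 to 1.84. Probe sets of 1 transcript are repeat readings and not replicates. Arrays of number 1 gave 0.51 to 0.93 and arrays of number 2 gave 0.47 to 0.70. None of the 5 was called in the fit per probe set. All 5 were called with the array number as a block, a fit whose spread is that between duplicate arrays only and which called 7.4% of probe sets as higher in tumors.

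Txnrd1, the thioredoxin reductase that keeps that system running, had log2 differences of -0.16 ± 0.22, -0.29 ± 0.23 and -0.06 ± 0.18 (SE) on its 3 probe sets. On its main probe set it read 295 and 266 (tumor 1), 351 and 357 (tumor 2) and 494 and 361 (tumor 3), against 440.4 and 345 (parental). Tumor 1 was thus the lowest source on all 3 Txnrd1 probe sets, and the tumor and parental arrays overlapped on each.

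Nqo1, a quinone reductase widely used as a readout of NRF2, gave 58.6 and 34.2 (tumor 1), 99.5 and 85.0 (tumor 2) and 75.9 and 88.0 (tumor 3), against 87.7 and 86.6 (parental). Tumor 1 lay below parental cells by 0.75 on the log2 scale, while tumors 2 and 3 differed from them by 0.07 and -0.08. Hmox1, the heme oxygenase that splits heme to biliverdin, gave 63.2 and 71.3 (tumor 1), 52.9 and 148 (tumor 2) and 47.9 and 61.5 (tumor 3), against 37.2 and 74.2 (parental). Its second array was the brighter in all 4 sources, and the log2 difference of 0.30 ± 0.28 (SE) became -0.08 without parental replicate 1.

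Nfe2l2 itself had nearly equal means, 502 ± 129.6 (SD, n = 3 tumors) against 510 ± 87.6 (SD, n = 2 arrays), with a log2 difference of -0.04 ± 0.25 (SE). The equal means cover tumors that differed in order. The signal was 363 and 394 (tumor 1), 477 and 508 (tumor 2) and 629 and 644 (tumor 3), against 448 and 572 (parental). Tumor 1 lay below both parental arrays, tumor 3 above both and tumor 2 between them, and the arrays of no 2 tumors overlapped.

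**Figure D2:**
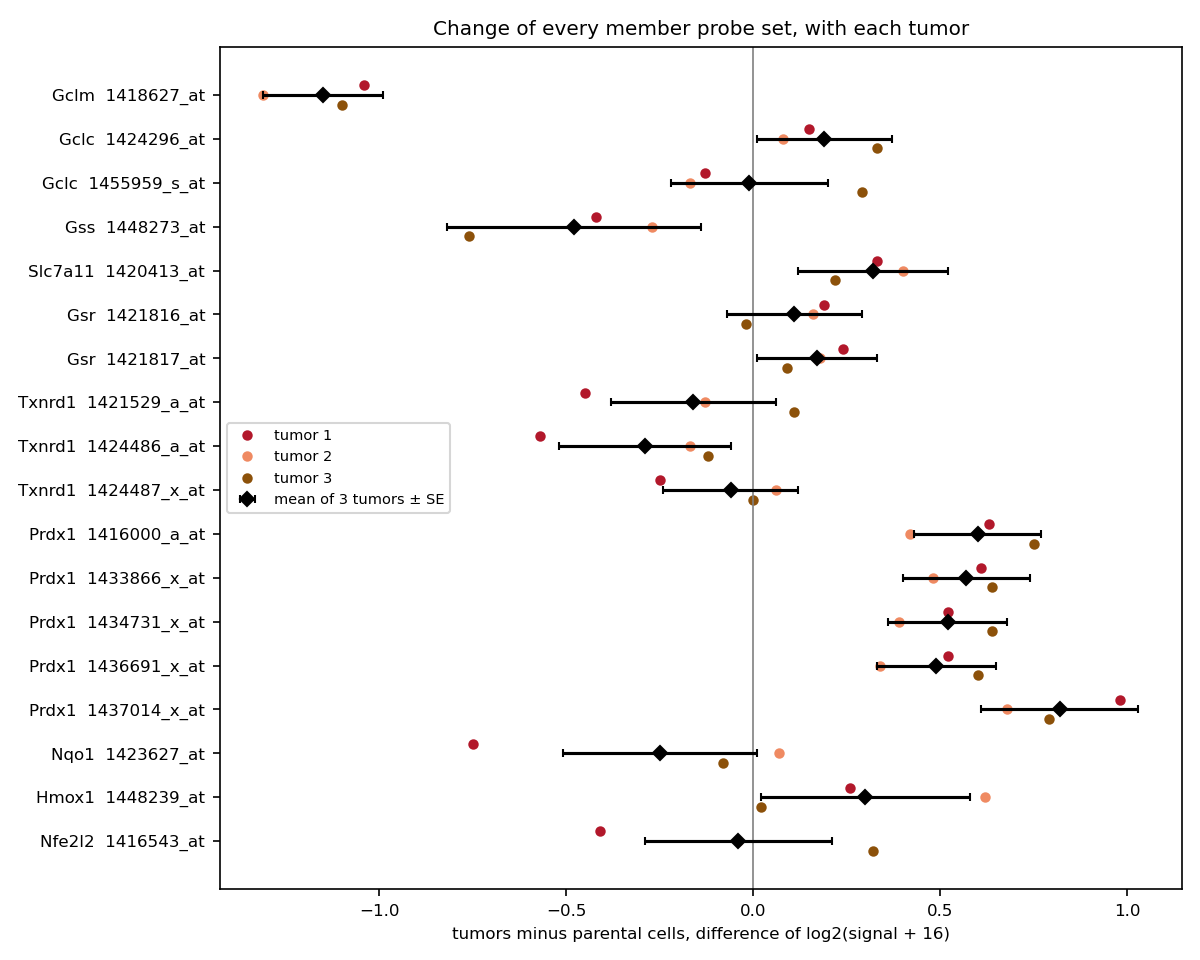
Difference of log2(signal + 16), tumors minus parental cells, on the x axis for each of the 18 member probe sets, with black diamonds for the mean of 3 tumors ± SE and coloured points for single tumors. Gclm stands at -1.15 with its 3 tumors close together, the Prdx1 probe sets stand at 0.49 to 0.82, and Nqo1 and Nfe2l2 spread widely between tumors.

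In the fit per gene, 1 of the 9 members measured there was called, which was Gclm, against 0.773% of all genes (0.176% called as lower and 0.598% as higher). Because the set was built around that gene, the count is only a description. The other 8 had log2 differences between -0.48 and 0.32, 4 above 0 and 4 below, and none was called. In the fit per probe set 1 of 18 was called, against 0.698% of all probe sets. With the array number as a block 6 of 18 were called, Gclm and the 5 of Prdx1, against 13.1%. The 5 of Prdx1 are repeat readings and not replicates, and Gclm was chosen from this contrast, so these counts too are only a description. The median log2 change of all genes was 0.02.

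Whether the 3 tumors differed from one another played no part in choosing the members, so it was tested. The limma F test over the 3 tumors used all 8 arrays with a mean per source, and its spread is that between duplicate arrays. It called 1.62% of genes and 0 of the 9 members, 2 of which had an unadjusted p under 0.05, against 12.6% of genes. These were Nfe2l2, with an adjusted p of 0.228 by limma, and Nqo1, with 0.234. Nfe2l2 was lower in tumor 1 than in tumor 3 by a log2 difference of -0.73 ± 0.19 (SE), and the differences of tumor 1 from tumor 2 and of tumor 2 from tumor 3 were -0.37 and -0.36. Nqo1 was lower in tumor 1 than in tumor 2 by -0.82 ± 0.23 (SE) and than in tumor 3 by -0.68, while tumors 2 and 3 differed by 0.14. With the array number as a block, which called 6.46% of genes, the adjusted p was 0.0576 for Nfe2l2 and 0.0813 for Nqo1. Gclm differed little between tumors, by 0.27, 0.06 and -0.22 for tumors 1 and 2, 1 and 3, and 2 and 3 (SE 0.32 each, adjusted p = 0.93). Txnrd1 had an adjusted p of 0.506, and the other members had 0.817 or more.

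The rest of the pathway was read from 6 gene lists, counted here without the 10 members. Of their 118 genes 78 were measured in the fit per gene, and 0 were called in tumors against parental cells, where 0.773% of genes were. At an unadjusted p under 0.05 there were 11 (14.1%), where 16.4% of all genes were. Of the 78 genes 45 lay above 0 and 33 below, with a median of 0.07, where 52.9% of all genes lay above 0. With the array number as a block 7 were called as higher and 3 as lower, where 8.66% and 5.86% of genes were (14.5% in all). Among the 7 is Gpx3, named after its values were seen, which exceeded the 40th percentile on 3 arrays, all of tumors. Its call is therefore only a description. With all 8 arrays and a mean per source 3 were called (Gstz1, Mgst2 and Ugdh), where 4.17% of genes were, and with the source as a random block 2 (Gstz1 and Ugdh), where 1.55% were. Set against parental cells 1 tumor at a time, limma called 4 list genes in tumor 1 (Gstz1, Mgst2, Blvrb and Ugdh), where 3.68% of genes were called. It called Mgst2 in tumor 2, where 1.53% were, and 0 in tumor 3, where 2.55% were. These comparisons share the parental arrays. The 3 genes of lowest p in each list are named below. Where such a gene is given no adjusted p with the array number as a block, that value was 0.0599 or more.

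Among the 9 measured genes of glutathione synthesis, cysteine supply and breakdown, 5 lay above 0 and 4 below, with a median of 0.04. The lowest p was that of Lap3, a leucine aminopeptidase, at 0.38 ± 0.19 (SE, adjusted p = 0.373 by limma). It was followed by Ahcy, which hydrolyses S-adenosylhomocysteine, at -0.41 (0.394), and Chac2, which degrades glutathione, at -0.46 (0.559).

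The 18 genes of glutathione reduction, peroxidases, transferases and glutaredoxins had 13 above 0 and 5 below, with a median of 0.15. Gstz1, a transferase of tyrosine breakdown, came closest to a call in this list. Its signal was 37.0 and 23.2 (tumor 1), 37.2 and 26.4 (tumor 2) and 43.0 and 37.6 (tumor 3), against 108 and 74.8 (parental), so that the groups did not overlap. The log2 difference was -1.10 ± 0.20 (SE), with an adjusted p of 0.0803 by limma and 0.00228 with the array number as a block. Gsta4, a transferase that conjugates lipid aldehydes, had 0.99 (0.177 by limma, and 0.0533 with the array number as a block). The glutaredoxin gene Glrx had 0.88 (0.209, and 0.035 with the block).

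Of the 12 genes of thioredoxins, peroxiredoxins, catalase and superoxide dismutases 6 lay above 0 and 6 below, with a median of 0.03. Msrb1, which repairs oxidised methionine, had a log2 difference of 1.11 (adjusted p = 0.199 by limma, and 0.0124 with the array number as a block). Txn1, the cytosolic thioredoxin that passes electrons to Prdx1, averaged 3399 ± 383 (SD, n = 3) in tumors and 2549 ± 272 (SD, n = 2) in parental cells, a difference of 0.41 (0.312, and 0.0478 with the block). Its mitochondrial counterpart Txn2 had 0.40 (0.257, and 0.0808 with the block).

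The 12 genes of NADPH supply had 8 above 0 and 4 below, with a median of 0.16. Pgd, of the pentose phosphate pathway, had 0.57 (adjusted p = 0.367 by limma), with 1.11 in tumor 1 against 0.22 and 0.40 in tumors 2 and 3. Mthfd1, of folate metabolism, had -0.64 (0.368), and Me1, the cytosolic malic enzyme, had 0.87 (0.37).

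Of the 15 other NRF2 targets 9 lay above 0 and 6 below, with a median of 0.21. Ugdh, which makes the UDP-glucuronate used in conjugation, had the lowest p of this list. It read 218 and 326 (tumor 1), 226 and 247 (tumor 2) and 235 and 282 (tumor 3), against 103 and 128 (parental). Every tumor array was brighter than both parental arrays, and the log2 difference of 1.04 ± 0.17 (SE) did not pass (adjusted p = 0.0553 by limma, and 0.00345 with the array number as a block). Lrp8, a lipoprotein receptor, had 0.73 (0.241, and 0.0382 with the block), and Ephx1, an epoxide hydrolase, had 0.59 (0.346). Ephx1 exceeded the 40th percentile on only 2 arrays, the second arrays of tumors 1 and 2. It thus entered the fit through tumor arrays alone, and its values are given as a description.

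Of the 12 genes in the list of NRF2 regulation 8 lay below 0, where 47.1% of all genes did, with a median of -0.16. By limma 0 were called, and 1 had an unadjusted p under 0.05. Btrc, a substrate receptor of the ligase that marks NRF2 for breakdown, had -0.60 (adjusted p = 0.146 by limma). The NRF2 relative Nfe2 had -0.31 (0.37) and Mafk, a small MAF partner of NRF2, had -0.29 (0.454).

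**Figure D3:**
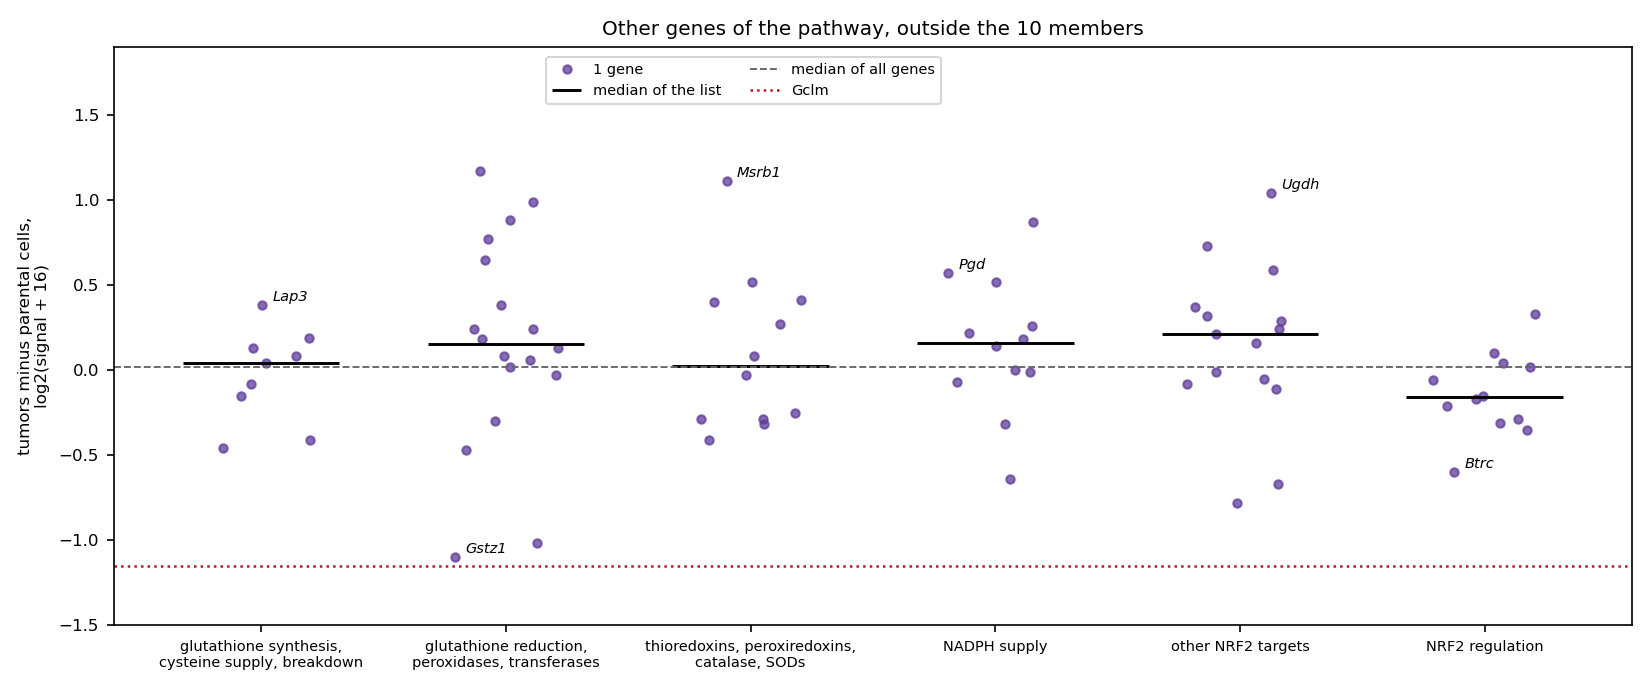
Difference of log2(signal + 16), tumors minus parental cells, for the 78 measured genes of the 6 pathway lists outside the 10 members, 1 point per gene, with a bar at each list's median, a dashed line at the median of all genes (0.02) and a dotted line at Gclm (-1.15). The gene of lowest p in each list is named, the list medians lie between -0.16 and 0.21, and every point lies above the Gclm line.

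Between tumors, the F test called 2 of the 78 list genes, Gstt1 and Ggt5, where 1.62% of all genes were called. Gstt1, a theta-class glutathione transferase, gave 106 and 94.8 (tumor 1), 363 and 255 (tumor 2) and 237 and 275 (tumor 3), against 220 and 166 (parental). Tumor 1 was lower than tumor 2 by -1.47 and than tumor 3 by -1.22 on the log2 scale (adjusted p = 0.0417 by limma), and its arrays lay below all others. The call was lost without any 1 of the 6 tumor arrays, with adjusted p of 0.057 to 0.193, and with a pseudocount of 1 or no filter on low values (0.0853 and 0.069). Ggt5, a glutamyl transferase that acts on glutathione conjugates, read 24.2 and 22.5 in tumor 3 but 1.68 to 2.92 in tumors 1 and 2, against 6.11 and 12.3 in parental cells. It exceeded the 40th percentile only on the 2 arrays of tumor 3 and so entered the fit through the tumor where it is high, and its values are given as a description. With no filter on low values its adjusted p was 0.0572 by limma.

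Of the 78 list genes 15, Ggt5 included, had an unadjusted F test p under 0.05, where 12.6% of all genes did. Several of these had a low p without passing. Mthfd2, a mitochondrial folate enzyme, was lower in tumor 3 than in tumors 1 and 2 (adjusted p = 0.0547 by limma). Blvrb, which reduces biliverdin, stood at -1.42, -0.60 and 0.02 against parental cells in tumors 1, 2 and 3 (0.0572). Mgst2, a microsomal glutathione transferase, stood at -1.15, -1.55 and -0.36 (0.066). All 3 passed with the array number as a block, at 0.0178, 0.012 and 0.0234. That fit called 7 of the 78 genes, Ggt5 included, where 6.46% of all genes were called. The others were Gstt1 and, named after their values were seen, Mgst3 (0.0217) and Slc3a2 (0.0327), which encodes the heavy chain that pairs with Slc7a11. The remaining genes among the 2 of lowest F test p in each list had adjusted p of 0.161 for Ggct, 0.189 for Idh1, 0.273 for Sod2, 0.316 for Prdx3, 0.494 for Ephx1, 0.564 for Bach1 and 0.74 for Nfe2l1. That of Ephx1 is a description, since the gene entered the fit through tumor arrays alone.

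On chromosome 3 the gene next to Gclm on one side is Abca4, a transporter known from the retina, and on the other side Dnttip2, a nucleolar protein. Abca4 read 2.11 and 8.10 (tumor 1), 2.76 and 12.3 (tumor 2) and 2.74 and 2.94 (tumor 3), against 75.1 and 48.4 (parental). None of its tumor arrays exceeded the 40th percentile, so it entered the fit through the parental arrays alone, and its log2 difference of -1.88 ± 0.20 (SE) is given as a description. With no filter on low values its adjusted p was 0.0492 by limma. Dnttip2 had -0.32 ± 0.25 (SE, 0.562), and Ptbp2, the furthest of the 5 measured genes on the Abca4 side, had -0.88 (0.115). The 10 measured genes nearest to Gclm had a median of -0.31 and a range of -1.88 to 0.71. Of these 7 lay below 0, as did 7 of the 10 nearest to Hmox1, 6 of the 10 nearest to Nqo1 and 47.1% of all genes. Of the 9 neighbours of Gclm other than Abca4 0 were called by limma, and 2 had an unadjusted p under 0.05. These went in opposite directions, Ptbp2 at -0.88 and Alg14 at 0.71. With the array number as a block, limma's adjusted p was 0.0197 for Ptbp2 and 0.0413 for Alg14. Around the other 9 members 0 of 90 neighbours were called, where 0.773% of all genes were, and 11 (12.2%) had an unadjusted p under 0.05, where 16.4% of all genes did. The medians of their neighbours ran from -0.19 to 0.43.

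**Figure D4:**
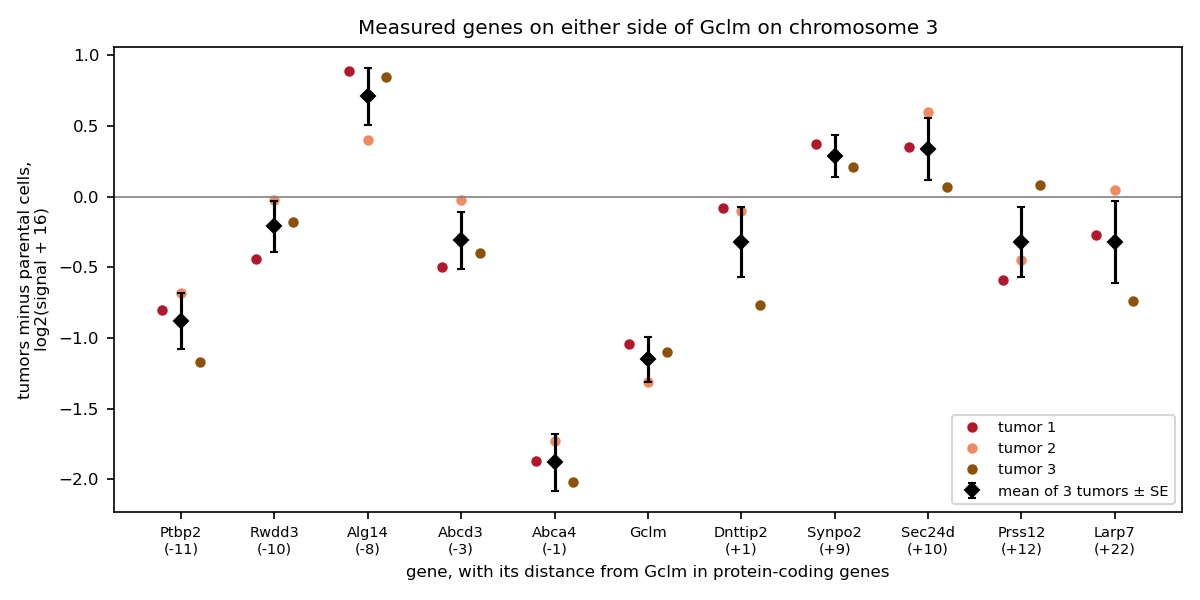
Difference of log2(signal + 16), tumors minus parental cells, on the y axis for Gclm and the 5 nearest measured genes on each side, in the order of genes on chromosome 3 and with the distance counted in protein-coding genes; diamonds give the mean of 3 tumors ± SE and points the single tumors. Abca4 (-1.88) and Gclm (-1.15) are the lowest and stand side by side, and Dnttip2 on the other side is at -0.32.

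Over the 8 arrays and outside the lists above, the genes whose log2 values correlated most with those of Gclm were Fads1 (r = 0.985), Cpt1a (0.984), Ing2 (0.978), Ints5 (0.976) and Nmrk1 (0.968). These points share their arrays and a gap between 6 tumor and 2 parental arrays, so the coefficients are a description. Fads1, a fatty acid desaturase, averaged 623 ± 79.6 (SD, n = 3) in tumors and 1283 ± 53.3 (SD, n = 2) in parental cells. Cpt1a, which imports fatty acids into mitochondria, averaged 257 ± 16.7 and 681 ± 13.2 in the same order. Fads1, Cpt1a, Ints5 and Nmrk1 lie on chromosome 19 and Ing2 on chromosome 8. Among the 8 other members in the fit per gene, r with Gclm ran from -0.61 for Slc7a11 to 0.32 for Nqo1, and for the 5 probe sets of Prdx1 it ran from -0.71 to -0.30.

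Some genes used as markers of other cell types differed between tumors and parental cells. The summed signal of 12 neutrophil genes was 4174 to 10554 on tumor arrays and 316 to 829 on parental arrays, led by Mpo and Prtn3. Mpo, Prtn3, Ngp, Elane, Cd177, Lcn2 and Ltf were higher on every tumor array than on both parental arrays. Ctsg, S100a8, S100a9 and Mmp8 overlapped, Ctsg at 26.7 to 356 on tumor arrays and 28.5 to 72.4 on parental arrays. For 5 eosinophil genes, led by Epx and Prg2, it was 3639.7 to 8219 on tumor arrays and 37.3 to 38.2 on parental arrays. For 14 macrophage and monocyte genes, led by Ccr2 and Adgre1, it was 824 to 3242 on tumor arrays and 194 to 909 on parental arrays. These genes did not move alike. Ccr2 read 235 to 1158 on tumor arrays and 2.38 to 5.2 on parental arrays. C1qb was lower in tumors, at 3.84 to 11.1 against 12.1 to 20.2, and Csf1r read 19.1 to 243 against 11.5 to 555. Another 4 (C1qa, C1qc, Marco and Ms4a7) were at background on every array. T cell genes, led by Cd3g and Cd3d, summed to 859.8 to 2578 on tumor arrays and 56.8 to 73.7 on parental arrays. By limma 2 of 10 measured neutrophil genes, 2 of 4 eosinophil genes, 3 of 8 macrophage and monocyte genes and 1 of 2 T cell genes were called as higher, where 0.598% of all genes were. Those at background in parental cells, such as Epx, Prg2 and Ccr2, entered the fit through the tumor arrays, where they are high. The counts of called markers are therefore a description and not a test.

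The sums of the red pulp macrophage, erythroid, and stroma and endothelium lists overlapped between tumor and parental arrays. Those of the macrophage and monocyte list above overlapped too, and those of the pro-B and precursor-B list did not. Red pulp macrophage genes, of which Hmox1 was the brightest and Slc40a1 next, summed to 69.0 to 196 on tumor arrays and 58.0 to 101 on parental arrays. Erythroid genes, led by Klf1 and Epor, summed to 318 to 1341 on tumor arrays and 725 to 1098 on parental arrays, and stroma and endothelium, led by Pecam1 and Sparc, to 235 to 403 on tumor arrays and 256 to 294 on parental arrays. Of the markers, Camp, Ccr3, C1qa, C1qc, Marco, Ms4a7, Spic, Slc40a1, Cd163, Hba-a1, Alas2, Cd3e, Cd4, Thy1, Cd2, Col1a1, Col3a1, Dcn, Cdh5, Kdr and Emcn did not exceed the 40th percentile on any array. The 12 pro-B and precursor-B markers on the array summed to 472 to 643 on tumor arrays and 243 to 251 on parental arrays. By limma 1 of the 4 measured was called as higher, where 0.598% of all genes were, and this count too is a description. Cd79b read 209 to 298 on tumor arrays and 77.6 to 109 on parental arrays, and Cd79a 128 to 277 on tumor arrays and 87.7 to 95.2 on parental arrays. Vpreb1, Ebf1, Dntt, Rag1, Rag2 and Blnk, all defining of early B cells, exceeded the 40th percentile on 0 arrays. The cultured parental line itself read 162 to 725 for Prtn3, 96.9 to 237 for Adgre1 and 537 to 895 for Klf1. Whether marker signals came from other cells or from FL5.12-derived cells was not tested. Nor was the part of any such cells in the values of Gclm, Prdx1 and the other genes tested. In such bulk RNA fewer cells of a type and less RNA per cell cannot be told apart.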

How the data were processed

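The deposited values are linear intensities, 1 per probe set and array, which the authors computed with MAS5, per the submitters' processing notes; its version is not stated there. With 2% of probe sets trimmed at each end, every array averaged 150.06, so the signals were already on a common scale.

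Symbols are those of the platform annotation, brought up to date through gene IDs in RefSeq GRCm38.p6 (20351 of 20380 probe sets with 1 symbol matched). A further 691 probe sets had several symbols and 1555 had none, and 64 controls were not used. A gene was read from its probe set of highest mean log2 value. Tests were limma 3.58.1 in R 4.3.3, with Benjamini-Hochberg adjustment; the F test had 4 residual degrees of freedom. The numbers of arrays (1 and 2) come from the labels. Same-numbered arrays deviated together in all 6 pairs of sources (r = 0.4 to 0.595), so the array number pairs them and a fit with it as a block was also run. Members and lists were chosen with earlier results of these data known. Named genes were the members, the 3 of lowest p and the 2 of lowest F test p in each list, the 5 outside the lists most correlated with Gclm, and per marker list the 2 brightest and those at background; neighbours of Gclm were added after seeing the data. The number of arrays limits precision. For the fit per probe set, every alternative other than the pseudocount and the filter's removal was added after seeing the data.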

Additional observations from a re-analysis of the deposited data

Results flagged for a closer look

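Both tumor 1 arrays of Nfe2l2 lay below, and both tumor 3 arrays above, the 2 parental arrays. Tumor 1 differed from tumor 3 by -0.73 on the log2 scale. Over the 3 tumors limma's F test gave an adjusted p of 0.228, which did not pass, and 0.0576 with the array number as a block.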

How the results depend on the processing

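Gclm kept its sign in all 19 settings (-1.44 to -0.86) and was called in 8 of them. Since Gclm was chosen from this contrast on these same arrays, that is a description and not a test. The 66 genes called became 33 with a pseudocount of 64, 26 with no filter, 356 with all 8 arrays and a mean per source, 132 with the source as a random block, 1239 with the replicate block, 5 on arrays of number 1 and 12 on arrays of number 2. The 104 probe sets called became 45, 22, 489, 193, 1952, 5 and 12 in the same order. With a pseudocount of 1, no filter or all 8 arrays (either way), 0 member genes and 0 member probe sets were called. The same held on arrays of number 1 or 2. With the block 6 member probe sets were called, which were Gclm and the 5 repeat readings of Prdx1. The F test's 138 genes became 72 with a pseudocount of 1, 79 with no filter and 551 with the block, always with 0 members. Leaving out a tumor or a parental array gave 13 to 73 genes (13 without parental replicate 2, 17 without parental replicate 1), 9 to 94 probe sets and 0 members; leaving out a tumor array gave 37 to 99 genes in the F test. The causes were not tested, except that leaving out arrays leaves fewer samples. Gss, Hmox1, Gsr and Txnrd1 changed sign in 1 setting each and Nfe2l2 in 3. With 3 tumors and 2 parental arrays, a difference that was not called is not shown to be absent, and Slc7a11 lay near background.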

Other observations

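Several members differed between the first and second arrays in the same direction in all sources. Same-numbered arrays also deviated together over all 8535 genes (r = 0.4 to 0.595), so this is not read as a trait of the members. The share of all genes with such a shared direction was not counted. All 5 Prdx1 probe sets were dimmer on the second array in 4 of 4 sources, the widest gaps on any being log2 differences of -0.86, -0.60 and -0.82 in tumors 1, 2 and 3 and -0.52 in parental cells. Slc7a11 was brighter on the second array in 4 of 4 sources, by 0.75, 0.30 and 1.01 in tumors 1, 2 and 3 and 0.54 in parental cells, as were Hmox1, Nfe2l2 and the main probe set of Gsr. What the array number stands for is not given in the labels.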
